A study of Mus musculus with 6 samples.

Results

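The comparison described here is that of mouse embryonic stem cells given SB431542 for 24 h with untreated cells, gene by gene, at levels the arrays measure well. It rests on 4 of the 6 arrays of the series, 2 titled as inhibitor-treated and 2 titled as control, chosen by their titles alone. All groups were E14Tg2a cells, a mouse embryonic stem cell line that grows without feeder cells, kept in N2B27, a defined medium, to which LIF (1000 U/ml) and BMP4 (20 ng/ml) were added. The control cells were untreated, with no vehicle named in the labels, the inhibitor group received SB431542 at 5 µM for 24 h, and the remaining 2 arrays came from cells given activin at 10 ng/ml for 2 h. Activin values stand beside the others for orientation only, since the treatment times differ and the control arrays are shared. Separate cultures are not stated for the replicate arrays, so p-values cover only array-to-array spread, which may be technical. Values are log2 of the deposited array intensities, and each gene is represented by its brightest probe set (largest 6-array mean). Of 18193 genes, 6525 had a mean above log2 8 over the 4 arrays. The 42 of these on lists for Nodal/Activin, BMP or trophectoderm genes were counted apart, and the other 6483 are the genes described.

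Nodal and activin are ligands of the TGF-beta family. They assemble type II receptors with the type I receptors ALK4 or, for Nodal, ALK7, which phosphorylate Smad2 and Smad3, and these enter the nucleus with Smad4. SB431542 occupies the ATP pocket of ALK4, ALK5 and ALK7, so it blocks signals of activin, Nodal and TGF-beta and spares most BMP receptors. Mouse embryonic stem cells make Nodal themselves, and in this medium LIF acts through Stat3 and BMP4 through Smad1 and Smad5.

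Lefty1 and Lefty2, Nodal antagonists that Nodal signalling induces, served as the check of the labels. Lefty1 read 10.78 and 10.57 in control, 12.00 and 12.19 with activin, and 5.58 and 4.70 after SB431542. Lefty2 read 8.96 and 8.95, then 10.40 and 10.29, then 3.81 and 4.00. As a measure of background, the 15 Bacillus probe sets that had no spiked target lay between log2 3.00 and 5.09. Both Lefty2 arrays and 1 Lefty1 array after SB431542 lay in that range, so with such arrays set to its top the falls were at least 40.5-fold for Lefty1 and at least 14.6-fold for Lefty2. Ascl2, a transcription factor of early trophoblast, went from 6.38 and 6.34 to 8.39 and 8.39, with the activin arrays at 6.02 and 6.19. These genes and Psmb8, described below, were supplied as markers of the comparison with earlier results known, and their values are descriptions. All 5 stem cell markers lay above log2 10 on every array. Pou5f1 and Nanog fell, by 0.43 and 0.24 on the log2 scale, and the other 3 did not pass on their brightest probe sets. Sox2 read 12.38 and 12.37 in control and 12.30 and 12.35 after SB431542, Zfp42 read 12.86 and 12.72 against 12.85 and 12.74, and Esrrb read 10.60 and 10.59 against 10.65 and 10.76. Of the dimmer Esrrb probe sets 1 rose by 0.66 and the other gave −0.42 without passing. None of 19 markers of fibroblasts and blood cells lay above log2 8, and their summed linear intensity was 920 and 840 in control and 811 and 753 after SB431542.

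Rises outnumbered falls among the well-measured genes. With limma on all 6 arrays, a prior variance that follows the intensity, robust estimation and Benjamini-Hochberg adjustment over 45037 probe sets, 580 of the 6483 genes rose (8.95%) and 248 fell (3.83%) at an adjusted p of 0.05. Most changes were small. The median rise was 0.48 on the log2 scale and the median fall −0.44. Of the genes called, 242 rose and 91 fell by at least 0.5, and 21 rose and 6 fell by at least 1. All 828 called genes had both SB431542 arrays on the same side of both control arrays, which also held for 35% (above) and 24.6% (below) of all 6483. Among 11610 dimmer genes on no excluded list the shares were 1.46% higher and 1.23% lower. Over all probe sets 1520 rose (3.38%) and 722 fell (1.6%).

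These calls rest on a prior that shares the spread between genes of like intensity. With limma's single prior for all intensities 0 of the 6483 genes passed in either direction, while 870 had an unadjusted p under 0.05, among them 695 of the 828, and over all probe sets 1 rose (0.00222%) and 6 fell (0.0133%). Among the dimmer genes 1 fell under that prior (0.00861%), which was Psmb8. The split between directions followed the scaling and the control arrays, as 421 rose and 438 fell after a repeated quantile normalization, 675 and 154 without control replicate 1, and 364 and 349 without control replicate 2. The first control array was brighter than the second by a median log2 difference of 0.08 over probe sets above log2 8. "Rose" and "fell" below mean past the threshold with the intensity trend. A call is said to hold for each array when it passed in all 4 fits that left out 1 control or SB431542 array.

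**Figure D1:**
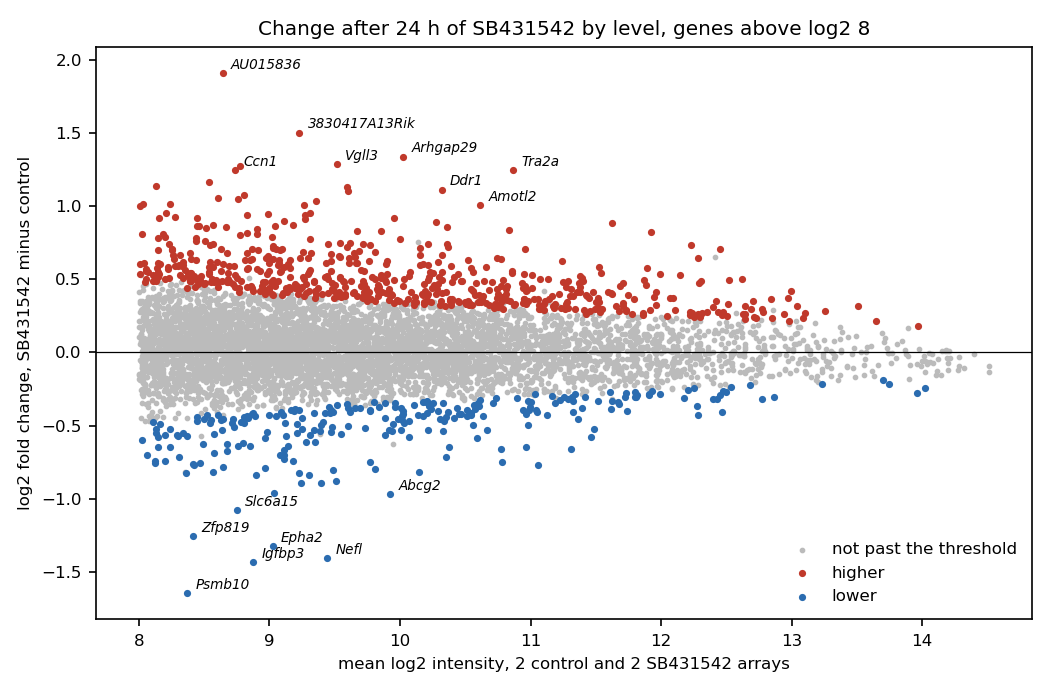
Log2 fold change (SB431542 minus control) against mean log2 intensity over the 4 arrays for the 6483 genes above log2 8, each point a gene. The 580 genes that rose (red) and 248 that fell (blue) spread widest below log2 10, with AU015836 at +1.91 and Psmb10 at −1.64 as the extremes.

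Some genes for peptide production for MHC class I, and some that interferon gamma induces, fell. Psmb8 and Psmb10 encode catalytic subunits that replace the constitutive ones in the immunoproteasome. Psmb8 read 8.17 and 8.10 in control, 7.82 and 7.79 with activin, and 5.46 and 5.61 after SB431542, a difference of 6.05-fold (log2 −2.60). As a supplied marker its values are a description, and because its mean was under log2 8 it is not among the 248. Averaged over its 2 probe sets Psmb8 gave a smaller fall (log2 −1.44). Psmb10 read 9.25 and 9.13, then 9.06 and 9.13, then 7.47 and 7.62, a 3.13-fold fall (log2 −1.64, SE 0.13, adjusted p in limma 1.41e-11). Both SB431542 arrays lay far below the control and activin arrays for each subunit. Psmb9, the remaining catalytic subunit, went from 6.88 and 6.52 to 6.04 and 5.83 and did not pass (adjusted p in limma 0.0856). Psme1, a subunit of the proteasome activator PA28, went from 10.81 and 10.58 to 10.06 and 10.05, with activin at 10.36 and 10.39 (log2 −0.65, SE 0.10).

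Peptide trimming and transport moved less evenly. Erap1, the aminopeptidase that trims peptides in the endoplasmic reticulum, fell from 7.03 and 6.60 to 4.95 and 5.32, where 1 SB431542 array lay within the background range and the other just above it, so the fall was at least 3.06-fold. Tap1, part of the peptide transporter, went from 7.27 and 7.26 to 6.69 and 6.32. It passed with all arrays (adjusted p in limma 0.0388) and in none of the 4 fits that left out an array (adjusted p from 0.0552 to 0.422). The presenting molecules themselves did not pass: B2m read 9.46 and 9.27 in control and 9.33 and 9.23 after SB431542, and H2-K1 read 9.29 and 9.05 against 9.28 and 9.26. H2-D1 went the other way without passing, from 8.65 and 8.54 to 9.10 and 8.87. In all, 0 rose and 2 fell of the 9 members of this list above log2 8, where 8.95% and 3.83% of all 6483 genes did. Of its 16 measured members 0 rose and 5 fell, where 4.14% and 2.16% of all genes on no excluded list did. The 5 include Psmb8, which was supplied as a marker with earlier results known, so that count is a description only.

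Irf1, a transcription factor that interferon gamma induces and that acts on immunoproteasome and transporter genes, read 9.35 and 9.28 in control, 9.59 and 9.60 with activin, and 8.43 and 8.52 after SB431542 (log2 −0.84, SE 0.12, adjusted p in limma 4.33e-06). The activin arrays lay above the controls and the SB431542 arrays below them. Irgm1, an immunity-related GTPase, went from 8.88 and 8.44 to 7.04 and 7.26, with activin at 8.67 and 8.75 (log2 −1.51, SE 0.15). Ifi35, an interferon-induced leucine zipper protein, went from 8.40 and 8.17 to 7.08 and 7.23 (log2 −1.13, SE 0.16). Gbp2, a guanylate-binding GTPase, went from 9.65 and 9.25 to 8.70 and 8.86, and its second probe set fell alike (log2 −0.71). Igtp, a relative of Irgm1, went from 6.92 and 6.71 to 6.21 and 5.29 and lost its call without control replicate 1 (adjusted p in limma 0.138), control replicate 2 (0.0585) or SB431542 replicate 2 (0.46). Of the brighter interferon-inducible genes, Ifitm3 and Oas1a did not pass. Ifitm3 read 11.94 and 11.98 against 11.86 and 11.85, and Oas1a read 8.57 and 8.16 against 8.40 and 8.37. Of the 34 measured genes of the interferon list 0 rose and 5 fell, where 4.14% and 2.16% of all genes on no excluded list did. Of these 34 genes 25 lay below control, as did 9164 of the 18093 genes on no excluded list. Over both lists joined, 4 of 20 genes above log2 8 fell, against 3.83% of all genes, and the 4 calls held for each array. Their median log2 fold change was −0.11, and that of all 6483 genes 0.03. Genes of these lists that are named at or under log2 8, other than Psmb8, Irgm1 and Ifi35, were picked after their values were seen.

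**Figure D2:**
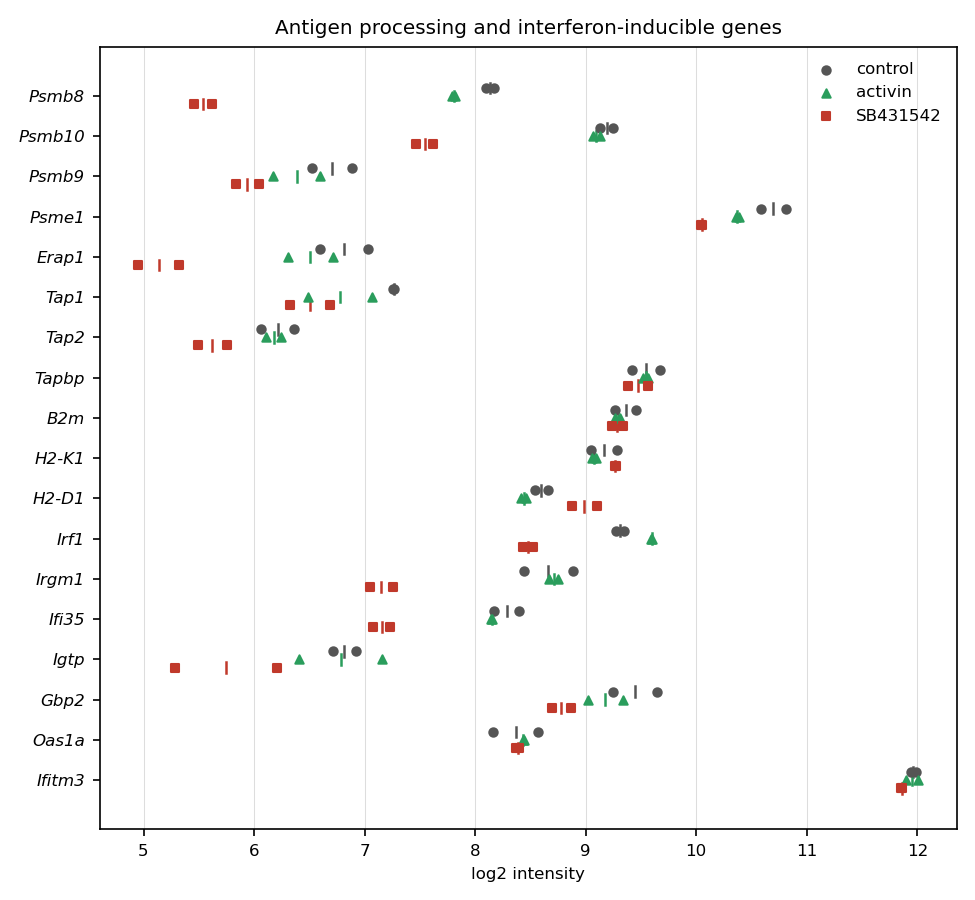
Log2 intensity on each array (points) and group mean (ticks) for 18 genes of antigen processing and the interferon response in control, activin and SB431542 cells. Psmb8, Psmb10, Erap1, Irgm1 and Ifi35 show SB431542 arrays well below the rest, while B2m, H2-K1, Tapbp and Oas1a overlap.

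Promoter sequences of 4 of the falling genes are shown because they carry the elements by which interferon gamma acts, the GAS element and the element bound by IRF proteins. They are RefSeq windows of GRCm38.p6, 250 bases before to 50 after the annotated start, written along the gene's strand, with matches in capitals.
Psmb8, chr17:34197945-34198244, plus strand: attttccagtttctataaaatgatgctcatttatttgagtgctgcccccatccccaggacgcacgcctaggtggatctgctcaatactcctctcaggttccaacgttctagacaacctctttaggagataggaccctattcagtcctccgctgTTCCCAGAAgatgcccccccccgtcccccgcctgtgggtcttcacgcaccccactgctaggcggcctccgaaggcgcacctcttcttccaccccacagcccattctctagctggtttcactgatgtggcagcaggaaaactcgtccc
Irf1, chr11:53769764-53770063, plus strand: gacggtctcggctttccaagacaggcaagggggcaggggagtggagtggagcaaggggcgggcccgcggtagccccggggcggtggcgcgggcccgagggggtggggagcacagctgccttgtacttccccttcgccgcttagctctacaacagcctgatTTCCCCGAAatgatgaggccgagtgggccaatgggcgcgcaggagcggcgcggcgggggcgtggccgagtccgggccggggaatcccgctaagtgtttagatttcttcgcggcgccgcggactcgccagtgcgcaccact
Gbp2, chr3:142620413-142620712, plus strand: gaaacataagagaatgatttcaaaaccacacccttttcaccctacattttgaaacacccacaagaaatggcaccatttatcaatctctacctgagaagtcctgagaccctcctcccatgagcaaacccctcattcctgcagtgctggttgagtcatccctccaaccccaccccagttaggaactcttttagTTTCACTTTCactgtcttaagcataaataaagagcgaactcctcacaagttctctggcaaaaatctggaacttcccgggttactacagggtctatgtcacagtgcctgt
Igtp, chr11:58199306-58199605, plus strand: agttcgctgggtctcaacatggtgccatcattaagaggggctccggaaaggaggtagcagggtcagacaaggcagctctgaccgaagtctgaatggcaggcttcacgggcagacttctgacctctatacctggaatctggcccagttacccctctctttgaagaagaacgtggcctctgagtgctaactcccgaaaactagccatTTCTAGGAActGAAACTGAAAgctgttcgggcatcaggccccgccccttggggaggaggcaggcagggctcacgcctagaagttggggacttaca
The search, on both strands, used TTCNNNGAA for GAS and, for the IRF element, GAAA followed by any 2 bases and a further GAAA. Psmb8 has a GAS match at −97 from the annotated start, and the first of the Irf1 windows has one at −90. Gbp2 has an IRF match at −59, and Igtp has a GAS match at −45 followed by an IRF match at −34, both in capitals. Of the 10 genes of both lists that fell at any level, 5 held the IRF letters (Erap1, Gbp2, Igtp, Irgm1 and Psme1) and 4 the GAS letters (Ifi35, Igtp, Irf1 and Psmb8). Over all 32851 windows of this length the shares were 3.44% and 8.3%, counted by window, whereas the 10 genes have 11 windows. Both lists were drawn up for antigen processing and interferon-inducible genes, and members that did not fall are not counted here. These shares therefore cannot tell whether the letters go with the fall. Psmb8, among the 4, is a supplied marker. The windows of Psmb10 and Tap1 held neither. A match is a description of the letters, and no binding was measured.

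Arhgap29, Vgll3 and Ccn1 were among the 15 largest rises, and Amotl2 rose by slightly less than these 15. Ccn1 and Amotl2 are on the list of genes tied to YAP and TEAD, the transcriptional pair that the Hippo kinases restrain. Arhgap29 and Vgll3 are not. Arhgap29, a GTPase-activating protein, read 9.37 and 9.35 in control, 9.26 and 9.33 with activin and 10.75 and 10.64 after SB431542, a 2.53-fold rise (log2 1.34, SE 0.10, adjusted p in limma 1.20e-11). Vgll3, a vestigial-like cofactor of TEAD proteins, read 8.92 and 8.82, then 8.75 and 9.10, then 10.22 and 10.10 (log2 1.29, SE 0.12). Its other 2 probe sets rose too, by 1.33 and 1.59 on the log2 scale. Ccn1, a secreted matrix protein and a standard YAP target, read 8.31 and 7.91, then 8.55 and 8.44, then 9.28 and 9.43 (log2 1.25, SE 0.14). A second Ccn1 probe set rose by 0.95, while averaging all 4, of which a pair lay near background, gave 0.70 (adjusted p in limma 0.0789). Amotl2, an angiomotin-family protein that binds YAP, read 10.18 and 10.03, then 10.38 and 10.06, then 11.12 and 11.12 (log2 1.01, SE 0.10).

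In each of these genes both SB431542 arrays lay above every control and activin array. Gadd45b, a stress-induced protein that YAP can also induce, rose from 8.88 and 8.78 to 9.75 and 9.81, and a dimmer probe set rose by 1.07. Of the 11 Hippo list members above log2 8, 3 rose (Amotl2, Ccn1 and Gadd45b) and 0 fell, where 8.95% and 3.83% of all 6483 genes did, and the 3 calls held for each array. Ccn2, the other classical YAP target, read 9.92 and 9.89 against 9.88 and 9.99, and Yap1 and Tead1 changed by −0.02 and 0.11 without passing. Rhou, an atypical GTPase, rose from 8.34 and 8.19 to 9.31 and 9.38, with activin at 8.29 and 8.31, and its second probe set rose by 0.86. Pls3, an actin-bundling plastin, rose from 9.00 and 9.07 to 10.17 and 10.15, with activin at 9.15 and 9.64.

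The promoter windows of Ccn1, Amotl2 and Vgll3 are shown because each holds GGAATG, the core letters of the TEAD site, in capitals as CATTCC on the printed strand.
Ccn1, chr3:145649936-145650235, minus strand: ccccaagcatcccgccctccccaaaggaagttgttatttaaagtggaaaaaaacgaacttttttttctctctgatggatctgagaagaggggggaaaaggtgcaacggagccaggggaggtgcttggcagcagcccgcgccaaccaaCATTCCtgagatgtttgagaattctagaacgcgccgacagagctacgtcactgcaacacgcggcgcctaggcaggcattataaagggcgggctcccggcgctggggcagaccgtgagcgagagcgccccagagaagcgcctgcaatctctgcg
Amotl2, chr9:102717554-102717853, plus strand: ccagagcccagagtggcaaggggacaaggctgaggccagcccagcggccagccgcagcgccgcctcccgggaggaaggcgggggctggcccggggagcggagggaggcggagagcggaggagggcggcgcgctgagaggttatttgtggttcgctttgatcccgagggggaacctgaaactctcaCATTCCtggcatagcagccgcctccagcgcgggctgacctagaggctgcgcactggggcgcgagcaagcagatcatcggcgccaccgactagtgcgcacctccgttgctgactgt
Vgll3, chr16:65814939-65815238, plus strand: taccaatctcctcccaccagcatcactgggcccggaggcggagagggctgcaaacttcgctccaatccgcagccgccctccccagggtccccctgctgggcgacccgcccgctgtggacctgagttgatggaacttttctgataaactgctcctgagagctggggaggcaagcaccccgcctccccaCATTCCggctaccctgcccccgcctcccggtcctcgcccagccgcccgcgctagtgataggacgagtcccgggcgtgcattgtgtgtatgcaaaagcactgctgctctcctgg
The match begins at −103 in Ccn1, −65 in Amotl2 and −63 in Vgll3. The window of Gadd45b holds none. Over all windows 14.7% hold these letters on either strand. Of the 15 largest rises 14 have a window, with 20 windows among them, and 3 of the genes hold the letters (Ccn1, Pls3 and Vgll3). The percentage counts windows and the 3 counts genes, so they are not like measures.

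**Figure D3:**
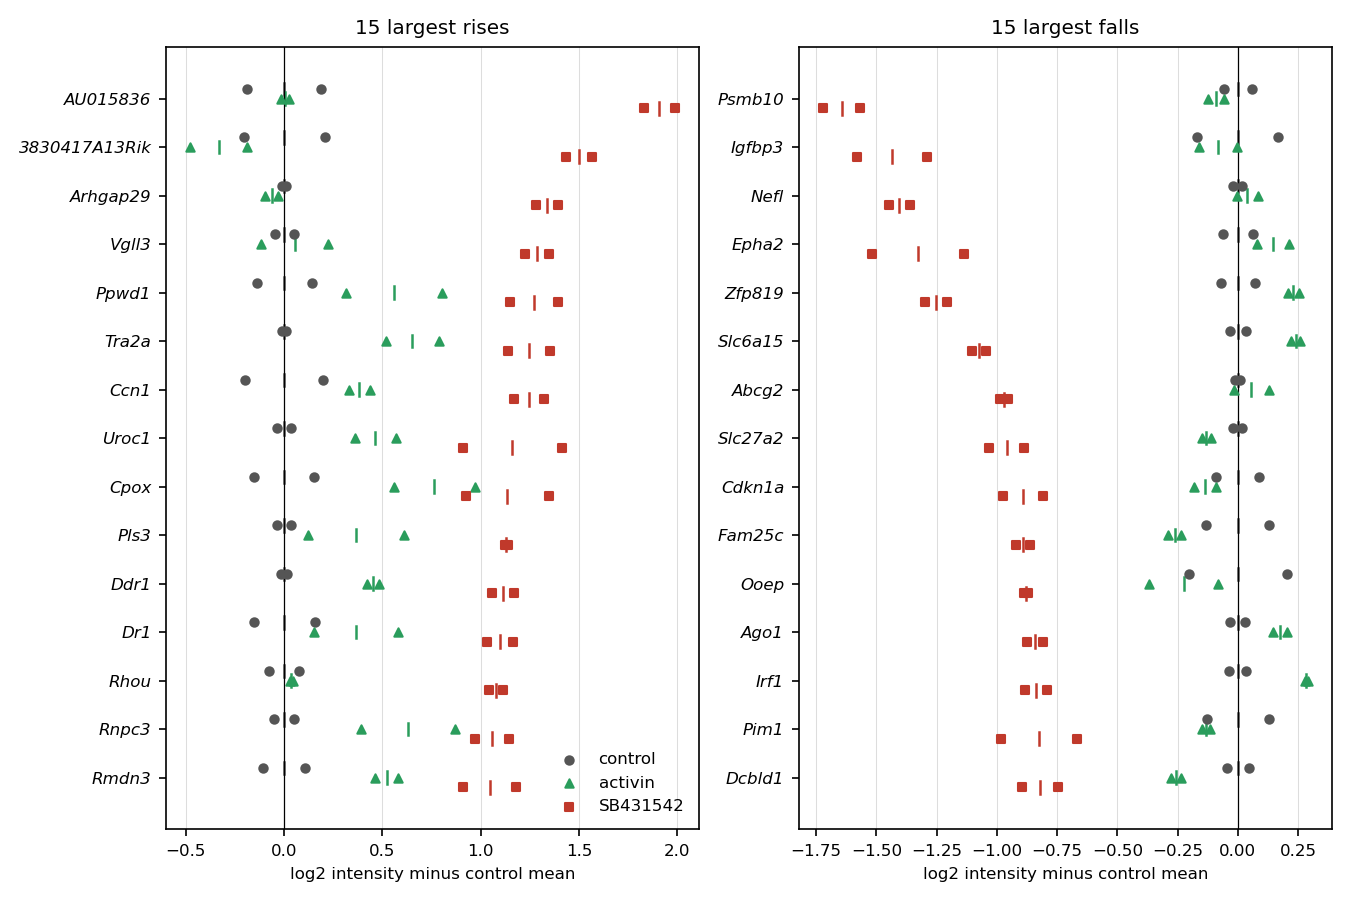
Log2 intensity minus the control mean on each array (points; ticks mark group means) for the 15 largest rises (left) and 15 largest falls (right) above log2 8. Arhgap29, Vgll3 and Rhou have activin arrays near control, whereas the activin arrays of Tra2a, Cpox, Rnpc3 and Ppwd1 lie between control and SB431542.

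The remaining large rises were of mixed function. AU015836 had the largest, from 7.88 and 7.50 in control and 7.67 and 7.71 with activin to 9.52 and 9.68 after SB431542, a 3.75-fold rise (log2 1.91, SE 0.14, adjusted p in limma 4.94e-12), and 3830417A13Rik followed, from 8.68 and 8.27 to 10.04 and 9.91. Both are known here by these symbols only. Tra2a, a splicing activator, went from 10.23 and 10.25 to 11.60 and 11.38, with activin at 10.76 and 11.03. Of its dimmer probe sets 1 passed with a rise of 0.92, those at +0.33 and +0.32 did not, and the average of all 6 was 0.46 (adjusted p in limma 0.14). Ddr1, a collagen-receptor tyrosine kinase, went from 9.78 and 9.75 to 10.93 and 10.82, with activin at 10.25 and 10.19. A second Ddr1 probe set rose by 0.70 and the others ranged from −0.34 to 0.61 without passing, and averaged they gave no call (log2 0.35, adjusted p in limma 0.405).

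For some rises a second bright probe set did not follow. Cpox, an enzyme of haem synthesis, went from 7.41 and 7.71 to 8.91 and 8.49 on its main probe set, and a second with a control mean of 8.23 changed by −0.18. Dr1, which holds TBP inactive, rose by 1.10 on its main probe set and by 0.14, not passing, on the second. Rnpc3, a protein of the minor spliceosome, rose by 1.06 with a second at −0.07, and Rmdn3, a tether of mitochondria to the endoplasmic reticulum, rose by 1.04 with a second at −0.08. The activin arrays of these genes also lay above control on the main probe set, at 8.12 and 8.53 for Cpox, 9.21 and 9.63 for Dr1, 8.47 and 8.95 for Rnpc3 and 8.70 and 8.81 for Rmdn3. Which transcripts each probe set detects was not tested. Ppwd1, a prolyl isomerase of the spliceosome, rose by 1.27 and Uroc1, an enzyme of histidine breakdown, by 1.16. Uroc1 has a dim second probe set and lost its call when both were averaged (adjusted p in limma 0.066), as did Cpox (0.507).

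Among falls the largest after Psmb10 belonged to secreted, surface and neuronal genes. Igfbp3, which binds insulin-like growth factors, read 9.76 and 9.42 in control, 9.59 and 9.43 with activin and 8.01 and 8.30 after SB431542, a 2.70-fold fall (log2 −1.43, SE 0.13, adjusted p in limma 6.45e-10), and its second probe set gave −1.65. Nefl, the light neurofilament subunit, read 10.12 and 10.16, then 10.23 and 10.14, then 8.70 and 8.78, a 2.65-fold fall. Epha2, an ephrin receptor, read 9.75 and 9.62, then 9.90 and 9.76, then 8.17 and 8.55, a 2.51-fold fall. In all 3 genes the activin arrays overlapped or bordered the controls and the SB431542 arrays lay apart.

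Transporters and regulators followed. Slc6a15, a neuronal amino acid transporter, went from 9.26 and 9.32 to 8.24 and 8.18, and Abcg2, an efflux pump also known from stem cells, from 10.40 and 10.42 to 9.46 and 9.42. Slc27a2, which takes up and activates fatty acids, went from 9.53 and 9.49 to 8.48 and 8.63. Zfp819, a zinc finger protein, fell by 1.25 on the log2 scale, Ago1, an Argonaute protein of small RNA silencing, by 0.84, and Ooep, a maternal protein of the oocyte cortex, by 0.88. Pim1, a kinase that Stat3 induces, went from 9.77 and 9.51 to 8.65 and 8.97, with activin at 9.52 and 9.49. Fam25c fell by 0.89 and Dcbld1 by 0.82. The calls of all 15 largest falls held for each array.

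Of 22 p53 targets and cyclin-dependent kinase inhibitors above log2 8, 6 fell and 1 rose (Gadd45b), where 3.83% and 8.95% of all 6483 genes did. Cdkn1a, which encodes the kinase inhibitor p21, read 9.77 and 9.60 in control, 9.50 and 9.59 with activin and 8.71 and 8.88 after SB431542, a 1.86-fold fall (log2 −0.89, SE 0.12, adjusted p in limma 1.15e-06). A dimmer Cdkn1a probe set gave −0.49 and did not pass. Pmaip1, which encodes the death-promoting protein Noxa, went from 8.85 and 8.74 to 7.95 and 8.12, with activin at 9.20 and 8.99. The calls of Cdkn1a and Pmaip1 held for each array. The other falls were Plk2 (−0.46), Ei24 (−0.42), Zmat3 (−0.34) and Aen (−0.31), each lost without at least SB431542 replicate 1 (adjusted p in limma from 0.0595 to 0.387). Mdm2 (−0.27), Ccng1 (−0.20) and Trp53inp1 (0.01) did not pass. The count of falls ranged from 2 to 8 over 13 alternatives.

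**Figure D4:**
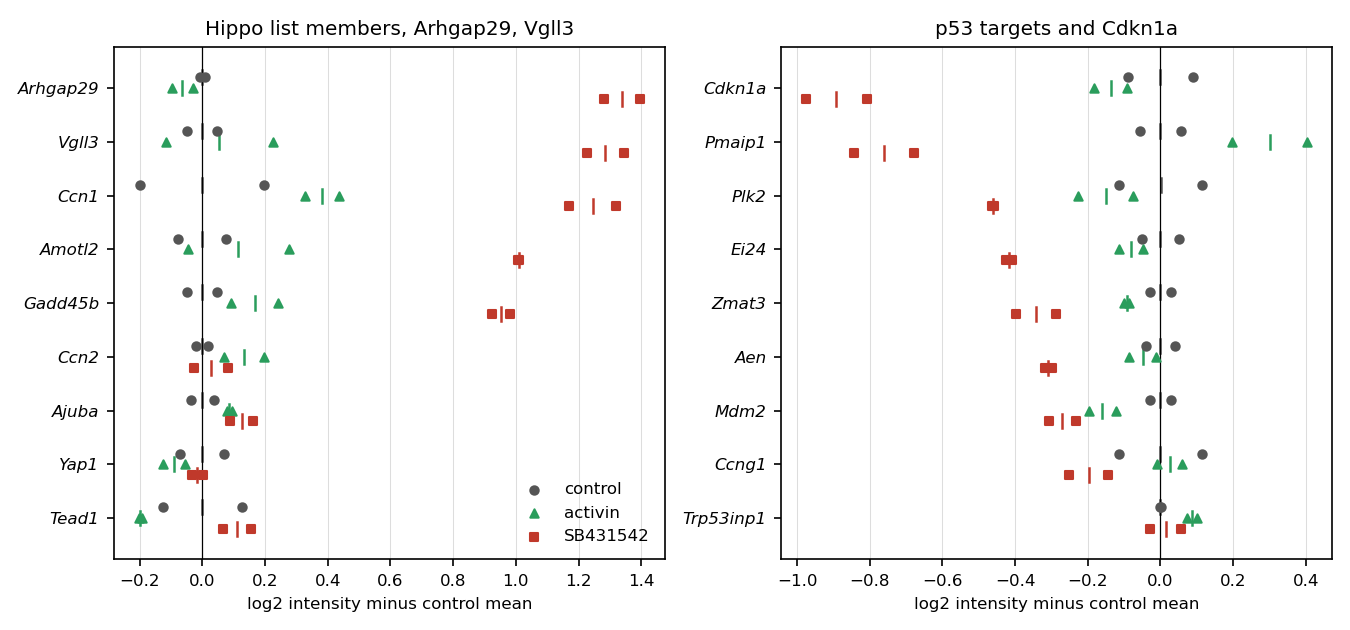
Log2 intensity minus the control mean on each array (points; ticks mark group means) for Hippo list members with Arhgap29 and Vgll3 (left) and p53 targets with Cdkn1a (right). Arhgap29, Vgll3, Ccn1, Amotl2 and Gadd45b lie near or above +0.9 after SB431542 while Ccn2, Ajuba, Yap1 and Tead1 stay near 0, and Cdkn1a and Pmaip1 fall furthest on the right.

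Of 43 genes of the amino acid stress response and the tRNA synthetases 8 rose and 0 fell, where 8.95% and 3.83% of all 6483 genes did. The median log2 fold change was −0.03, with 24 of the 45 measured members below control, so the list as a whole did not move one way. Cebpb, a transcription factor of this and other stress responses, rose from 8.84 and 8.78 to 9.77 and 9.68, with activin at 9.00 and 8.89, and a second probe set rose by 0.75. Atf4, the central factor, went from 11.50 and 11.32 to 11.83 and 11.80, while its other probe sets disagreed, at 1.28 and −1.04, both passing. Slc38a2, an amino acid transporter under Atf4, rose by 0.41, with activin at 12.19 and 12.15 against 12.16 and 12.16 after SB431542. The rises of Ddit3 (0.66), Cebpg (0.48), Trib3 (0.42), Phgdh (0.33) and Iars (0.32) were each lost without SB431542 replicate 1 and some without other arrays (adjusted p in limma from 0.0523 to 0.358). Atf4 and Slc38a2 also lost their calls when probe sets were averaged (adjusted p in limma 0.287 and 0.971), which left 2 rises on the list.

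Of 21 epithelial junction genes 6 rose and 0 fell, where 8.95% and 3.83% of all 6483 genes did, and the median log2 fold change was 0.21 against 0.03. With probe sets averaged 4 rose and 1 fell. Cdh1, E-cadherin, went from 12.24 and 12.25 to 12.59 and 12.60, with activin at 12.35 and 12.35, and its call held for each array. Cgn, the tight junction protein cingulin, rose by 0.59, Spint1, a membrane protease inhibitor, by 0.51, Dsp, desmoplakin of the desmosome, by 0.48 with a second probe set at 1.03, Dsg2, a desmosomal cadherin, by 0.35 and Gja1, connexin 43, by 0.27. These were lost without 1 or more arrays: 4 without control replicate 2, 4 without SB431542 replicate 1 and 3 without SB431542 replicate 2 (adjusted p in limma from 0.0886 to 0.346). Dsc2, a desmosomal cadherin under the level, rose from 7.83 and 6.98 to 8.56 and 8.63, and its second probe set by 0.68. Beside these stand the 30 measured trophectoderm genes, whose summed linear intensity was 22070 and 19432 in control and 30325 and 30388 after SB431542, with 8 of 14 above log2 8 higher and 0 lower. Their part in the junction result was not tested. In bulk RNA a change in the number of cells of a type and a change in RNA per cell cannot be told apart.

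The actin and intermediate filament genes went both ways. Vim, vimentin, fell from 11.77 and 11.74 to 11.12 and 11.23 on its brightest probe set, whereas the next rose by 0.38, so its direction is not settled. Anxa5, an annexin, fell from 9.19 and 8.88 to 8.23 and 8.28, and S100a10, a partner of annexin A2, from 11.36 and 11.21 to 10.62 and 10.65. Tpm4, a tropomyosin, rose from 11.18 and 11.16 to 11.58 and 11.58, and Tubb2b, a beta-tubulin, from 10.46 and 10.63 to 11.06 and 11.02. Of 36 actin genes 5 rose and 4 fell, and without control replicate 1 the rises numbered 11. Of 17 tubulins and motor genes 3 rose and 0 fell, Tubb2b alone holding for each array. Matrix genes were also divided, 2 of 17 rising and 3 falling. Beside the counts of these lists stand the shares over all 6483 genes, 8.95% rising and 3.83% falling. Fn1, fibronectin, fell from 11.24 and 11.27 to 10.85 and 10.85 on a probe set whose companion gave −0.18.

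Of 28 genes of naive pluripotency 8 fell and 2 rose, where 3.83% and 8.95% of all 6483 genes did. Pou5f1, which encodes Oct4, went from 12.57 and 12.41 to 12.00 and 12.14, with activin at 12.46 and 12.45 (log2 −0.43, SE 0.07, adjusted p in limma 1.51e-04). Manba, a lysosomal enzyme on this list as a stem cell marker, fell by 0.56. Klf4, a target of LIF and Stat3, rose from 10.83 and 10.81 to 11.36 and 11.29, with its second probe set at 0.02. Utf1, which fell on its brightest probe set, gave −0.0002 and no call when its probe sets were averaged. The falls of Tfcp2l1 (−0.42), Utf1 (−0.33), Nr0b1 (−0.31), Dppa5a (−0.28) and Nanog (−0.24) and the rise of Rex2 (0.47) were lost without 1 or more arrays (adjusted p in limma from 0.0623 to 0.466). Over 13 alternatives the number of falls ranged from 4 to 11. Of 12 genes of the primed epiblast 0 rose and 4 fell (Pim2, Zic5, Dnmt3a and Utf1), each lost without SB431542 replicate 1 and without replicate 2.

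Of 9 Notch genes 2 fell and 0 rose, and of 15 FGF and ERK genes 3 fell and 1 rose. Of all 6483 genes 3.83% fell and 8.95% rose. Notch3, a receptor, went from 9.17 and 9.17 to 8.58 and 8.48, with activin at 9.15 and 9.34, and its second probe set fell by 0.78. Jag1, a Notch ligand, went from 9.61 and 9.58 to 9.06 and 9.01, with other probe sets at −0.99 and −0.15, the latter not passing. Il17rd, the FGF antagonist Sef, went from 9.50 and 9.36 to 8.77 and 8.70, with activin at 9.74 and 9.94. Dusp6, an ERK phosphatase and feedback target, fell by 0.47 and missed the threshold without SB431542 replicate 2 (adjusted p in limma 0.0525). Ccnd1, cyclin D1, fell by 0.41 and Dusp5 rose by 0.60, both lost without SB431542 replicate 1 (adjusted p in limma 0.204 and 0.275) and Ccnd1 also without control replicate 1. Other bright Ccnd1 probe sets gave −0.20 and 0.02 without passing, and their average with the brightest gave no call (log2 −0.19). None of 8 Wnt response genes above log2 8 was called, although Sp5, a Wnt-responsive factor just under the level, fell from 8.19 and 8.03 to 6.64 and 6.49.

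Of 14 immediate early genes 6 rose and 2 fell, where 8.95% and 3.83% of all 6483 genes did. Jun went from 8.33 and 8.22 to 8.95 and 9.01, with activin already at 8.89 and 8.77. Myc fell from 9.32 and 9.19 to 8.65 and 8.69, with activin at 9.64 and 9.48, so that its activin and SB431542 arrays lay on opposite sides of control. The calls of Jun, Ccn1 and Myc held for each array. Klf6 (0.49), Dusp1 (0.42), Klf10 (0.41), Btg1 (0.39) and Ier2 (−0.42) did not (adjusted p in limma from 0.0667 to 0.384).

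Of 47 splicing factors 9 rose and 1 fell, where 8.95% and 3.83% of all 6483 genes did, and 37 were not called. Hnrnpa2b1, a nuclear RNA-binding protein, went from 12.65 and 12.67 to 13.02 and 13.04, with activin at 12.98 and 12.86. Its other 3 probe sets rose by 0.84, 0.81 and 0.45. With the quantile normalization 4 rose and 4 fell, so the split between directions depends on scaling. Of the 9 rises Tra2a, Hnrnpa2b1 and Mbnl2 (0.70) held for each array, and Mbnl2, a splicing regulator, had probe sets between 0.03 and 0.78. The activin arrays of Tra2a and Hnrnpa2b1 lay above control as well.

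Survival and chromatin genes gave isolated calls. Xiap, a caspase inhibitor, rose from 9.16 and 9.35 to 10.17 and 10.00, with activin at 9.71 and 9.60. Its 6 other probe sets were dim and did not pass, and averaging them gave no call (adjusted p in limma 0.751). Of 11 genes of the apoptosis list 4 rose and 0 fell, where 8.95% and 3.83% of all 6483 genes did, and with probe sets averaged none was called. The others were Bcl2l1 (0.46), Mcl1 (0.35) and Cycs (0.32), each lost without SB431542 replicate 1 (adjusted p in limma 0.0797, 0.171 and 0.0683), Bcl2l1 also without control replicate 2 or SB431542 replicate 2 and Mcl1 also without control replicate 1. The 5 other Mcl1 probe sets all lay below control without passing (log2 from −0.21 to −0.06), and averaging turned the sign of Mcl1 and of Cycs. Uhrf1, which recruits Dnmt1 to replicated DNA, rose from 11.16 and 11.08 to 11.62 and 11.66, with a second probe set at 0.06. It was the only rise among 34 genes of DNA replication (2.94%), of which 3 fell (8.82%). Ect2 and Anln, which act in cytokinesis, rose by 0.58 and 0.54. With Nuf2 (0.65) they were the 3 of 33 mitosis genes called (9.09%), a share near the 8.95% of all 6483 genes that rose. Nuf2 was lost without SB431542 replicate 1 (adjusted p in limma 0.0548).

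Of the 7 endoderm-associated genes above log2 8, 4 rose and 0 fell, where 8.95% and 3.83% of all 6483 genes did. No further member was called among the 26 measured, whose median log2 fold change was 0.04 with 11 below control. Lrp2, the endocytic receptor megalin, went from 7.77 and 7.28 to 8.57 and 8.51, and a second probe set rose by 0.87. The call of Lrp2 held for each array, while Cited1 (0.63), Sparc (0.44) and Col4a1 (0.44) were lost without SB431542 replicate 1 (adjusted p in limma 0.158, 0.0594 and 0.188), Cited1 also without control replicate 2 and Col4a1 also without control replicate 1 or SB431542 replicate 2. The summed linear intensity of the 26 measured members was 6871 and 6267 in control and 7954 and 7616 after SB431542. Gata4 read 5.13 and 4.64 against 5.25 and 4.58, and Gata6 5.00 and 5.13 against 4.95 and 4.70, at or near the arrays' background in both groups.

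Metabolic genes gave few calls. Slc2a1, the glucose transporter Glut1, rose from 12.31 and 12.42 to 12.84 and 12.90, with both other probe sets rising by 0.42 and 0.43. Slc2a3, the transporter Glut3, rose by 0.22 on its brightest probe set, lost without SB431542 replicate 1 (adjusted p in limma 0.343), SB431542 replicate 2 or control replicate 1, and by 0.60, 0.73 and 0.76 on the others. Ldhb, a lactate dehydrogenase subunit, fell from 10.86 and 10.76 to 10.27 and 10.36. Of 26 genes of glycolysis and hypoxia 3 rose (11.5%) and 2 fell (7.69%), where 8.95% and 3.83% of all 6483 genes did. Fasn, fatty acid synthase, fell from 11.37 and 11.31 to 10.89 and 10.94 and was 1 of 2 falls among 27 lipid synthesis genes. Oxidative phosphorylation (2 of 47 higher), heat shock proteins (2 of 25), the lysosome and autophagy (2 of 30), glutathione and metallothionein genes (2 of 26), and ribosome biogenesis (1 of 39 higher, 2 lower) had shares of calls near or under the 8.95% and 3.83% over all genes. Igf2, the imprinted growth factor, rose from 12.18 and 12.02 to 12.82 and 12.79, with activin at 12.05 and 11.74, and a dim second probe set rose by 0.96. Igf2 and Peg3 (0.42) were the 2 of 12 imprinted genes called (16.7% higher, against 8.95% of all 6483 genes). The call of Igf2 held for each array and that of Peg3 did not. Peg3 also lost its call when its probe sets were averaged (log2 0.26, adjusted p in limma 0.35).

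**Figure D5:**
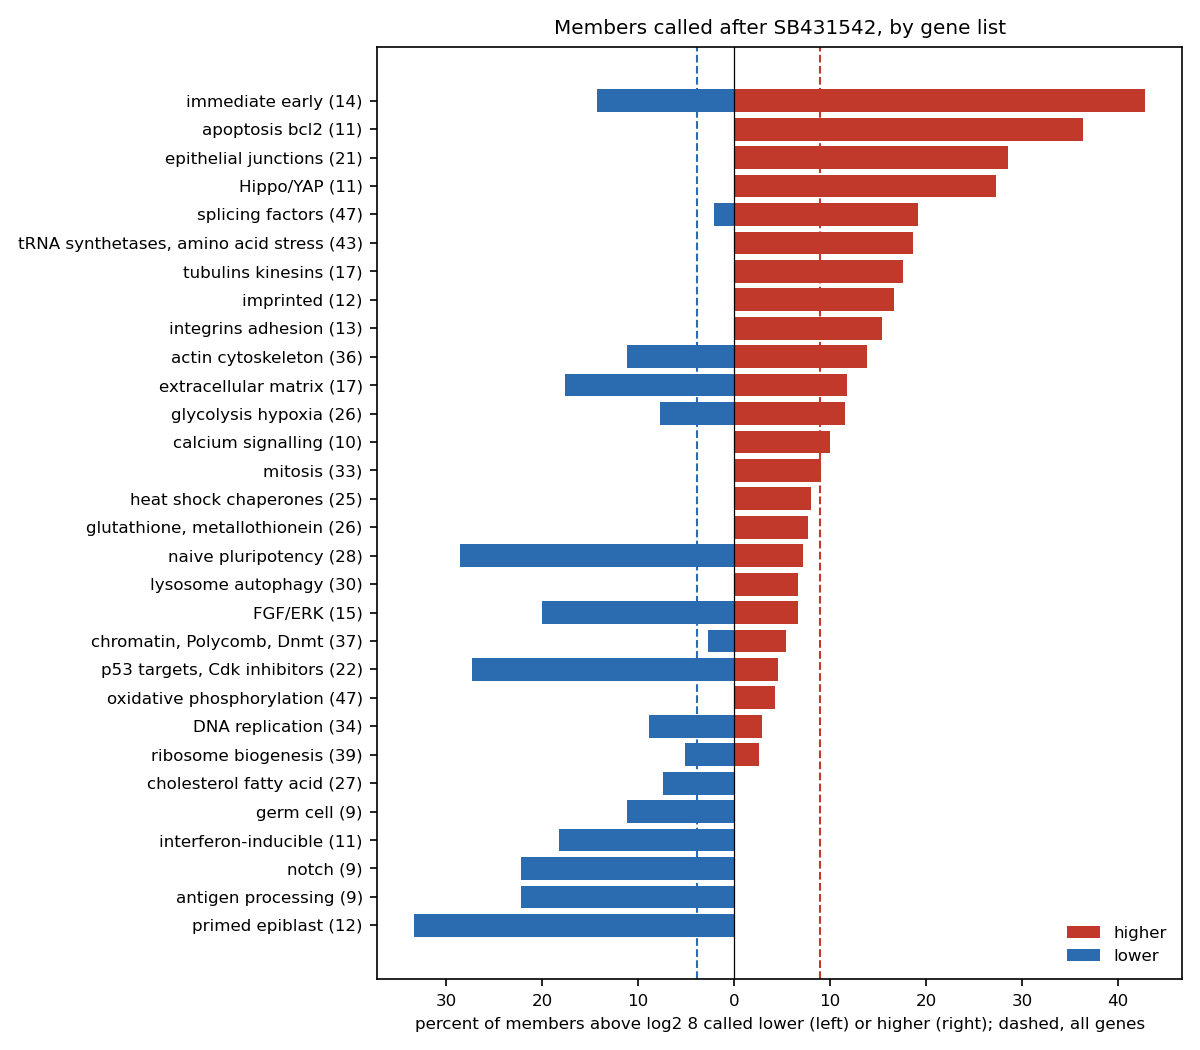
Percent of the members above log2 8 that rose (red, right) or fell (blue, left) for the 30 of 37 gene lists with at least 9 such members, whose number stands in brackets. Dashed lines mark all 6483 genes at 8.95% higher and 3.83% lower. The antigen processing, interferon and Notch lists have falls only, as do the primed epiblast, lipid synthesis (cholesterol and fatty acid) and germ cell lists.

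Gene families were also counted by their symbols. Of 86 solute carriers 9 rose (10.5%) and 10 fell (11.6%), where 8.95% and 3.83% of all 6483 genes did, and 5 of the rises and 4 of the falls held for each array. Slc7a7, an amino acid transporter, fell from 10.12 and 10.16 to 9.35 and 9.43, Slc38a4 rose from 10.48 and 10.35 to 11.06 and 11.07, Slc44a2, a choline transporter, rose by 0.66 and Slc30a2, a zinc transporter, by 0.81. Of 107 Zfp genes 13 rose and 3 fell, and the falls of Zfp819, Zfp428 (−0.82) and Zfp296 (−0.59) held for each array against 3 of the 13 rises. Cytosolic ribosomal protein symbols gave 2 rises (4.26%) and 4 falls (8.51%) among 47, of which Rps6ka6, a kinase caught by the pattern, alone held for each array. Mitochondrial ribosomal proteins gave 5 and 4 of 76, constitutive proteasome subunits 2 and 2 of 28, and respiratory chain subunits 2 and 1 of 77.

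Some genes crossed log2 8 in only 1 group. They were chosen by the change itself, so their values are descriptions and no count is read from them. Chst15, a chondroitin sulfate sulfotransferase, went from 8.51 and 8.12 to 6.21 and 6.09, a 4.50-fold fall, with activin at 8.97 and 8.57 and a second probe set at −2.09. Nrk, a kinase of the placenta, rose from 7.14 and 7.42 to 8.52 and 8.64, and a further probe set by 1.63. Greb1l rose by 1.35 and Fam199x by 1.33, with calls lost on averaging their probe sets (adjusted p in limma 0.251 and 0.101). Map3k12, a kinase of axon injury signalling, went from 6.29 and 6.88 to 8.87 and 8.43, yet activin read 7.85 and 8.14, a second probe set gave −0.14, and the average did not pass (adjusted p in limma 0.332). The called genes nearest log2 8 were Car4, a carbonic anhydrase (1.00), Rit1, a Ras-like GTPase (0.60), and Tyw3 (0.53) just above it, and Dsc2 (1.19), Adgre5 (−0.55) and Mycl (−0.55) just below.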

How the data were processed

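RNA of E14Tg2a cells was hybridised to 6 Affymetrix mouse arrays of 1 colour, 2 per group. The design text names the A version of the array, while the table holds 45101 probe sets. The deposited values are intensities on a linear scale, rounded to whole numbers from 6 to 26405, and RMA (no version) is the method in the submitters' processing notes. The software is not given in the sources used here. Groups follow the titles, of which 1 spells the compound SB432542.

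Intensities were converted to log2 with no further normalization. The 64 control probe sets were left out, and 34945 of the other 45037 have 1 gene symbol in the platform annotation, 932 several and 9160 none. limma 3.58.1 (R 4.3.3) was fitted with 1 mean per group and an intensity trend with robust estimation (residual df 3, prior df 34.3). The members and lists were chosen with earlier results of these data known, as were the tests. Described were 37 gene lists (1193 of 1282 entries matched, counting 3 excluded lists) and 16 symbol families, by counts with no set test. Named genes were the 15 largest rises and 15 largest falls, 5 each way with 1 group above log2 8, up to 4 members per list, 4 markers and the 3 genes on each side of log2 8, and other list members were picked after their values were seen. Promoter windows come from RefSeq. Alternatives covered the prior, scaling, a pseudocount of 16, leaving out the dimmest 40% of probe sets, averaged probe sets, other level limits, a replicate block and leaving out each array. The fit was tested on simulated data. The arrays give no detection call, and their number limits the precision.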

Additional observations from a re-analysis of the deposited data

How the results depend on the processing

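Counts of calls depended on the prior more than on any other choice compared. Against 580 rises and 248 falls above log2 8, the intensity trend without robust estimation gave 336 and 151, the single prior 0 and 0, and robust estimation without the trend 0 and 0. Shifting the columns to 1 median gave 70 and 39, averaging a gene's probe sets 213 and 122, and the quantile normalization 438 falls. Leaving out each array gave 235 to 675 rises and 101 to 349 falls. Over all 45037 probe sets the 1520 rises and 722 falls became 548 and 325 after the column shift, 855 and 345 without robust estimation, 0 and 5 without the trend, 1 and 6 with the single prior, and 1105 falls after quantile normalization, with 657 to 1727 rises and 290 to 929 falls when each array was left out. Level limits of log2 7 and 9, the pseudocount, the dim filter and the fit of 4 arrays moved no count by over 1.5 times. The replicate block gave 575 rises and 236 falls above log2 8 and 1522 and 706 over all probe sets. The labels do not say whether the numbers in the titles pair the arrays. Deviations from the group means correlated at 0.02 between control and SB431542, −0.14 between control and activin and −0.09 between activin and SB431542. Between control and SB431542 the value was −0.13 for probe sets above log2 8. With 2 arrays per group these correlations cannot settle whether the arrays are paired. Averaging probe sets turned the sign of Cycs (−0.0273), Mcl1 (−0.0375), Ndufs4 (−0.00871), Txn1 (−0.019) and Idi1 (0.0221), and the cause was not tested. Over 13 alternatives, without the single prior settings and the column shift, 91 rises, 57 falls and 25 of the 30 largest changes were called in every one, and 61 of 132 named genes kept their call. The fall of Lefty1 missed the threshold without control replicate 1 (adjusted p in limma 0.0509). Signal limits the dimmer genes, since the median residual SD was 0.0772 in the brightest of 10 bins of probe sets and 0.345 in the bin from log2 4.74 to 5.36, next to the background.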

Other observations

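Probe sets without a single gene symbol also moved. Of 836 above log2 8, 87 rose and 46 fell with the same fit, and they are not named here.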
